A study of Mus musculus with 106 samples.

Results

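The promoters of 45 genes of glucose breakdown, of 21938 protein-coding genes in all, were read in ChIP-seq peak lists from mouse blood stem cells and macrophages. The 45 were chosen as a pathway, with earlier results of these data known. They were 16 genes of core glycolysis, 4 of lactate formation and export and 5 that set the level of fructose 2,6-bisphosphate. The rest were 2 fructose bisphosphatases, 2 phosphoglucomutases, 9 that govern the entry of pyruvate into mitochondria and 7 of the pentose phosphate pathway. Hexokinases and glucose transporters were left out of the 45. A promoter reached 1000 bp to either side of any annotated transcription start site of the gene (genome build GRCm38), and it was read in all 70 peak lists, by whether a peak lay on it and by the rank of its best peak within that list.

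In ChIP-seq an antibody pulls down chromatin that carries a given histone mark, and intervals where the pulled-down DNA piles up form the peaks of a library. The marks were H3K27ac (histone H3 acetylated at lysine 27, found at promoters and enhancers in use) and H3K4me3 (trimethylated at lysine 4, found at promoters), each with 35 libraries. All mice were wild-type C57BL/6J, 12 to 14 weeks old. Controls were compared with mice given streptozotocin, a toxin of the insulin-producing β cell that causes diabetes, at 42 to 45 mg/kg a day for 5 days; tissue came from diabetic mice 6 weeks after the last dose, with blood glucose above 13.9 mmol/L. The cells were hematopoietic stem cells (HSC), which here means bone marrow depleted of cells bearing CD3, CD4, B220, Ter119 or Gr1 and therefore a mixture of stem and progenitor cells, and bone marrow–derived macrophages (BMDM) grown for 7 days with L929 conditioned medium in 5 mmol/L glucose. BMDM from control and diabetic mice alike were thus cultured in the same glucose. They were then kept in medium alone (unstimulated) or given 100 ng/mL lipopolysaccharide with 10 ng/mL interferon-γ (LPS+IFN-γ), a proinflammatory stimulus, for 16 hours. Each group of 1 mark, cell state and disease state held 6 libraries, except diabetic unstimulated BMDM, which held 5. The study's methods count individual animals as replicates, while the labels do not tie a library to an animal.

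Glycolysis converts glucose to pyruvate in the cytosol, with a small yield of ATP. Pyruvate is then either reduced to lactate and exported, or carried into mitochondria and converted to acetyl-CoA by pyruvate dehydrogenase, an enzyme complex that kinases switch off and phosphatases switch on. The pentose phosphate pathway branches from glucose 6-phosphate and supplies NADPH and ribose, and inflammatory macrophages are known for their reliance on glycolysis and this branch.

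Peak height cannot be compared between libraries, because the lists carry no totals of reads. Each peak was therefore replaced by its rank in its own list, where rank 1 is the peak with the highest −log10 p. Lists held 13730 to 277213 peaks (median 110154). A rank score was used for tests: log2 of 13730, the length of the shortest list, divided by the rank, so that 1 unit is a 2-fold change in rank, and a score of 0 is given to any promoter with no peak within the top 13730. A promoter is called ranked when its best peak was within the top 13730. A rank says where a promoter stands among the peaks of its library, not how much mark it carries.

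Promoter sequences of 6 members on which the results turn are printed first, 5′ to 3′ on the strand of the gene, from RefSeq on GRCm38.p6. Each is the run of up to 150 bases, within 250 bases upstream of the RefSeq start site and nearest to it, that lies in no GENCODE exon. Pgam1, Tpi1 and Pfkfb3 had promoters that ranked higher in BMDM than in HSC for at least 1 mark, Pdhb and Slc16a1 had promoters that ranked lower, and Pdk4 is shown as a promoter that was seldom ranked. Capitals mark every match, on either strand, to 6 short motifs: ACGTG (the core bound by hypoxia-inducible factors), CACGTG (the E-box bound by MYC and USF factors), GGGCGG (the GC box), CCAAT (the CCAAT box), TATAAA (the TATA box) and GAGGAA (a core bound by the myeloid factor PU.1). ACGTG lies inside CACGTG, so each CACGTG holds it on both strands.
Pgam1, chr19:41911721-41911870, plus strand: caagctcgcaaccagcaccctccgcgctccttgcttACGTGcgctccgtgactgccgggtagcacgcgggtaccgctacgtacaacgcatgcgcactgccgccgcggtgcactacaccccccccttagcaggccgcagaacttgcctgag
Tpi1, chr6:124814297-124814408, minus strand: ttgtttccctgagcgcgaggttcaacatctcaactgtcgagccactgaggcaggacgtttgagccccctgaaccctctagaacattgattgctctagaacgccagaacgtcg
Pfkfb3, chr2:11502102-11502251, minus strand: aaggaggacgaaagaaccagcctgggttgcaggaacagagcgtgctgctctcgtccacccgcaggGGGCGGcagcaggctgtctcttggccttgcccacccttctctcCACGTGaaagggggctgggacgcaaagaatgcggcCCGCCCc
Pdhb, chr14:8173026-8173175, minus strand: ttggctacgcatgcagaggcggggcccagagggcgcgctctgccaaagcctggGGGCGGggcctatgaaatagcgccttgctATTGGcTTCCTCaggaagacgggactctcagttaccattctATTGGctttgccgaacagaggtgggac
Slc16a1, chr3:104638514-104638663, plus strand: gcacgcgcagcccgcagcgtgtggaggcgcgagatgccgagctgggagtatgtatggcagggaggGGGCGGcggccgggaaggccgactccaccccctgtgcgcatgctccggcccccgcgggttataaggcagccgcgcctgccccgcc
Pdk4, chr6:5496310-5496459, minus strand: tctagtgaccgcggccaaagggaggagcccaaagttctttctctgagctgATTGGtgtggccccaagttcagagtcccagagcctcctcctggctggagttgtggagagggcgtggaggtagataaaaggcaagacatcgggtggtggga

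The Pgam1 run held 1 ACGTG and the Pfkfb3 run held 1 CACGTG and 2 GC boxes. The Pdhb run held 2 CCAAT boxes, 1 GC box and 1 GAGGAA, the Slc16a1 run held 1 GC box and the Pdk4 run held 1 CCAAT box. The Tpi1 run, which was 112 bases long and lay 138 bases before the start site, held no match. In the whole promoter table (250 bases before to 50 after each start), 44 of the 45 members had 65 entries. ACGTG was found in 35.4% of the entries of members and in 19.6% of all 32851 entries, and GGGCGG in 56.9% and 35.7%. The Tpi1 entry was among those with GGGCGG. The other shares, members first, were 10.8% and 7.15% for CACGTG, 44.6% and 37.4% for CCAAT, 6.15% and 13.6% for TATAAA, and 23.1% and 28.3% for GAGGAA. Base composition moved with these shares: the median GC content was 60.3% in entries of members and 52.7% in all entries, with a median of 17 and 7 CpG dinucleotides, and its part in the motif shares was not tested. A match describes letters and not a bound site.

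Most of the pathway carried both marks in every cell state. For H3K27ac, between 30 and 39 of the 45 promoters were ranked in a library, and the medians for HSC, unstimulated and LPS+IFN-γ BMDM were 35, 33 and 33.5. For H3K4me3 the count ran from 23 to 35, with medians of 29.5, 32 and 33. Over all libraries the median library ranked 75.6% of members for H3K27ac, against 46.1% of all genes, and 71.1% against 48.9% for H3K4me3. In all 35 H3K27ac libraries, 18 members were ranked (40.0% of members, against 27.3% of all genes): Gpi1, Pfkl, Pfkm, Aldoa, Gapdh, Pgam1, Eno1, Eno3, Ldha, Slc16a3, Pfkfb2, Pdhb, Pdp1, Mpc1, Mpc2, Pgls, Pgd and Tkt. In all 35 H3K4me3 libraries, 8 were ranked (17.8%, against 12.0% of all genes): Pfkm, Slc16a1, Pgm1, Pdp1, Mpc2, Pgls, Pgd and Tkt. Of these 8, 6 (Pfkm, Pdp1, Mpc2, Pgls, Pgd and Tkt) were ranked in every library of both marks.

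The members with the highest mean rank score came from different steps of the pathway. For H3K27ac they were Pfkm, a phosphofructokinase subunit that catalyzes the committed step of glycolysis, at a mean score of 3.67 (percentile 95.9 among all genes), and Pdhb, the β subunit of the E1 enzyme of pyruvate dehydrogenase, at 3.10 (percentile 92.99). For H3K4me3 they were Slc16a1, the lactate and pyruvate transporter MCT1, at 3.06 (percentile 97.6), and Mpc2, a subunit of the mitochondrial pyruvate carrier, at 2.86 (percentile 96.1). Pfkm shares its promoter region with Senp1, which starts within 2000 bp. The same holds for Mpc2 with Dcaf6, Pfkfb2 with Yod1 and Gm29427, Pgm1 with Itgb3bp, Pfkfb1 with Apex2, G6pdx with Ikbkg and Aldoa with Fam57b, so a peak at these 7 members cannot be assigned to 1 gene.

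**Figure D1:**
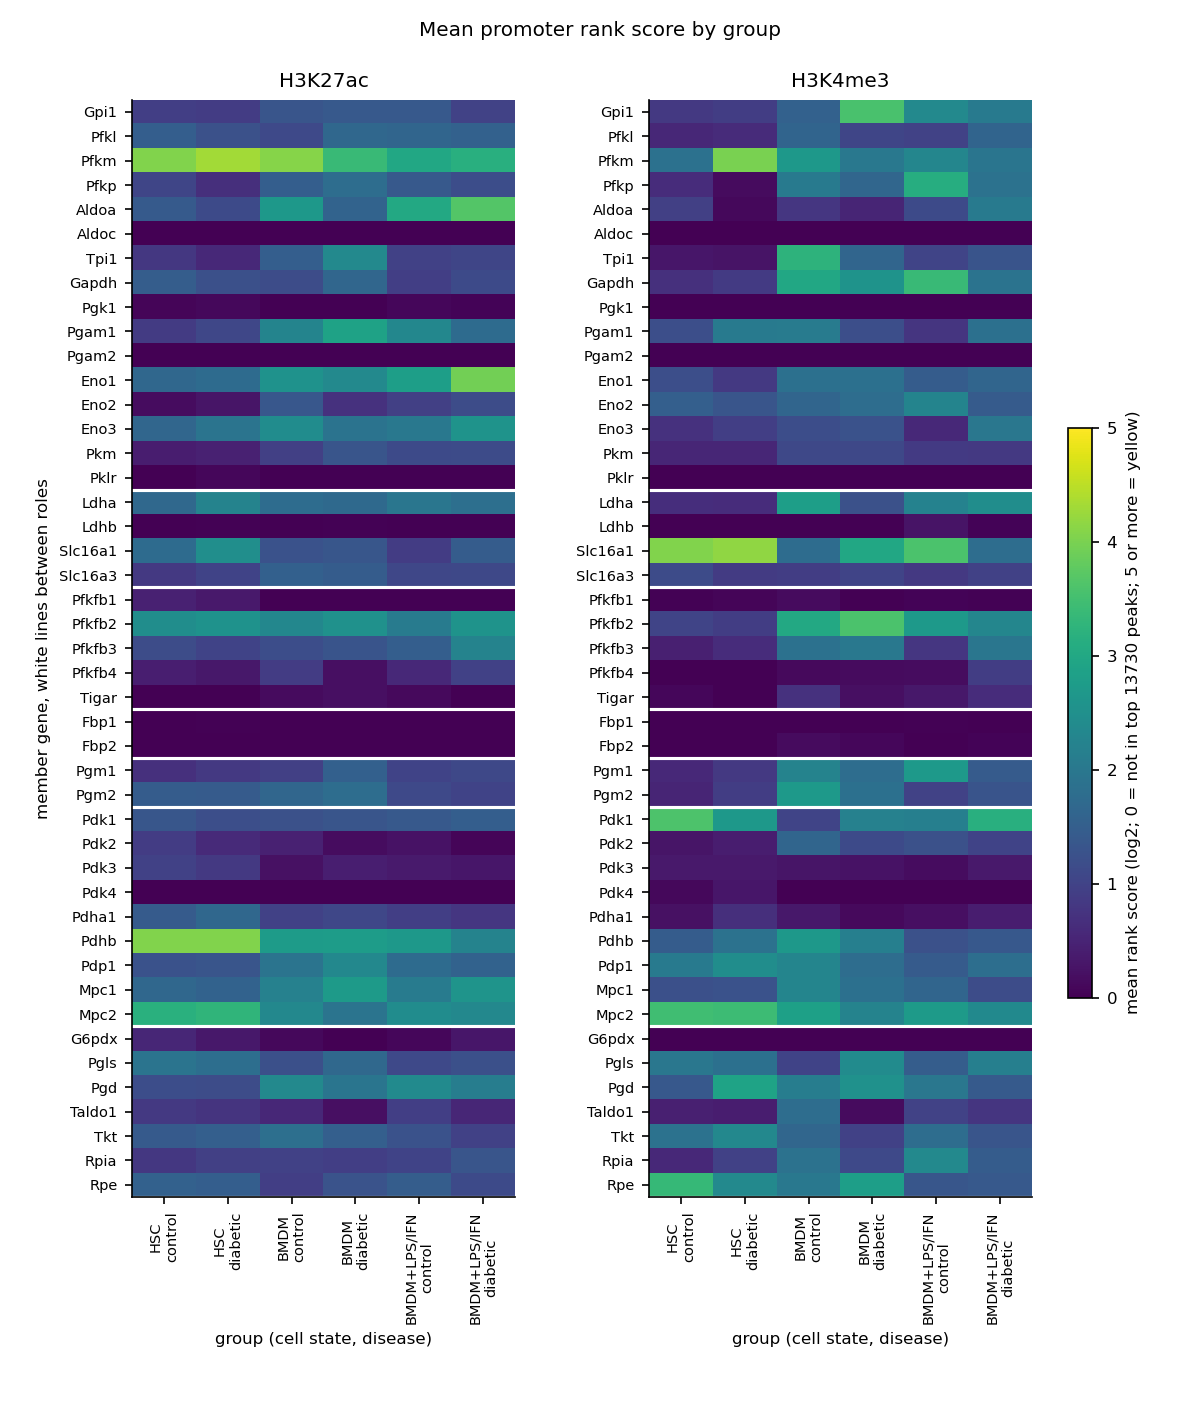
Mean rank score (log2, color) of each of the 45 members (rows, grouped by role) in the 6 groups of cell state and disease (columns), for H3K27ac and H3K4me3, over 6 libraries a group (5 in diabetic unstimulated BMDM). Aldoc and Pgam2 are at 0 in every column, and no member passed the test between the control and diabetic columns of a cell state.

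Members that were seldom ranked included Aldoc and Pgam2. Aldoc, the aldolase of brain, and Pgam2, the phosphoglycerate mutase of muscle, were ranked in 0 of 35 libraries of either mark. Pklr, the pyruvate kinase of liver and red cells, was ranked in 2 libraries for H3K27ac and 0 for H3K4me3, Fbp1, the liver fructose bisphosphatase, in 1 and 1, and Fbp2, its muscle form, in 0 and 6. Ldhb, the lactate dehydrogenase subunit of heart, was ranked in 2 and 5. Other isoforms known for single tissues were ranked widely: Eno3, the muscle enolase, in 35 and 30 libraries and Eno2, the neuronal enolase, in 29 and 34. The forms of most tissues were ranked in most libraries: Aldoa in 35 and 31, Pgam1 in 35 and 33, Pkm in 34 and 27 and Ldha in 35 and 32. Low peaks were nonetheless called at the seldom ranked promoters: a peak of any rank lay on Aldoc in 26 H3K27ac libraries and on Pklr in 26.

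Pdk4, a kinase that turns pyruvate dehydrogenase off in fasting, differed between marks. A peak of any rank lay on its promoter in 32 of 35 H3K4me3 libraries but in 17 of 35 H3K27ac libraries. It was ranked in 4 H3K4me3 libraries, all HSC, and in 1 H3K27ac library, also HSC. In HSC its H3K4me3 rank ran from 7459 (median 18350) to no peak, in unstimulated BMDM from 15701 (median 23805) to 172926, and in LPS+IFN-γ BMDM from 14052 (median 28393) to no peak. Its H3K27ac peaks were found in 9 of 12 HSC libraries, 5 of 11 unstimulated and 3 of 12 LPS+IFN-γ BMDM libraries. With 4 and 1 ranked libraries it was below the minimum of 5 needed for a test.

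Of the members, 5 lie on chromosome X. These were Pgk1, the phosphoglycerate kinase of most tissues, ranked in 6 H3K27ac and 0 H3K4me3 libraries, G6pdx, the enzyme that commits glucose 6-phosphate to the pentose phosphate pathway, in 17 and 0, Pfkfb1 in 9 and 5, Pdk3 in 26 and 23 and Pdha1 in 33 and 20. A peak of any rank lay on Pgk1 in 33 and 19 libraries and on G6pdx in 35 and 28. Over all genes, 31.0% of those on chromosome X were ranked in at least 5 H3K27ac libraries against 55.8% of the others, and 28.9% against 62.3% for H3K4me3. All 5 X-linked members (100%) reached 5 libraries for H3K27ac, against 82.5% of the other members, and 3 of 5 did for H3K4me3.

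On the libraries, 3 control H3K27ac libraries went against their labels. On 77 promoters called higher and 185 called lower after LPS+IFN-γ in diabetic BMDM, the mean score of the first set minus that of the second was −1.40 to −0.37 in unstimulated control libraries 1 to 4 but 0.89 and 0.58 in libraries 5 and 6, and it was 0.36 to 1.67 in the LPS+IFN-γ control libraries but −0.74 in library 5. Results are therefore given with all libraries as labelled and, where it changes a call, without these 3. For H3K4me3 the libraries of the same groups and numbers were left out, which rests on the shared number alone. On the same promoters these H3K4me3 libraries did not stand apart: −0.23 and −0.75 in unstimulated controls 5 and 6, and −0.73 in LPS+IFN-γ control 5. The other H3K4me3 control libraries ran from −1.29 to −0.12 unstimulated and from −0.78 to 0.23 after LPS+IFN-γ. H3K4me3 lists were shorter in HSC: the median length was 49624 peaks in control HSC and 161118 in control unstimulated BMDM, 89111 and 96580 in diabetic mice, and 5 HSC lists held under 50000. Cell identity was checked on marker promoters. Of 7 tested stem and progenitor markers, 6 had lower H3K27ac ranks in BMDM (Kit, Cd34, Gata2, Mecom, Myb and Flt3). Of the macrophage markers reported here, Mertk had higher ranks in BMDM (difference 0.59, limma adjusted p = 0.0021), and Csf1r (0.30) and Cd68 (0.87) did not pass. The defining macrophage markers Adgre1, Itgam, Msr1 and Mrc1 were at a mean score of 0 in both cell states for both marks. Of the markers of LPS+IFN-γ macrophages, 1 of 4 tested (Irf1) was higher in unstimulated BMDM than in HSC. Of the erythroid markers, 2 of 3 tested (Klf1 and Epor) were lower in BMDM, and 0 granulocyte and 0 lymphoid markers reached the minimum of 5 ranked libraries for a test in H3K27ac. For H3K4me3, 0 of 7 stem and progenitor markers passed. The part of cell mixture in the results was not tested, and in bulk chromatin more marked cells cannot be told apart from more mark per cell.

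The comparison of unstimulated BMDM with HSC, averaged over control and diabetic mice, asked which members changed with differentiation. For H3K27ac, 38 members were ranked in at least 5 libraries and tested, and 16 differed (limma, Benjamini-Hochberg adjusted p under 0.05 over all 12000 promoters tested): 9 ranked higher in BMDM and 7 lower. Of all promoters tested 33.4% differed, 11.4% higher and 22% lower. One of the 7, Pfkfb1, was ranked in HSC alone and passed the minimum of 5 libraries through HSC, so its difference was built into the selection, and without it 15 members differed, 9 higher and 6 lower. The median difference in score was 0.11 over the 38 members and −0.12 over all promoters tested. By unadjusted p under 0.05, 22 of the 38 differed (57.9%, against 43.1% of all promoters tested). The number called was sensitive to how peaks were ordered: with peaks ranked by fold enrichment instead of −log10 p, 4 members differed, Pgam1, Tpi1 and Eno2 higher and Pfkfb1 lower (18% of all promoters tested). Within control mice alone it was 5 (Pgam1 and Eno2 higher, Pfkfb1, Pdk3 and G6pdx lower, with 16.5% of all promoters tested called) and within diabetic mice alone 7 (Pgam1, Tpi1, Pfkp and Pdp1 higher, Slc16a1, Mpc2 and Pfkfb1 lower, with 15.9% called). Without the 3 libraries named above it was 17 (31.1% of all promoters tested): Pdhb and Pgd lost their call, and Slc16a3, Tigar and Taldo1 gained one.

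Of the 13 core glycolysis genes tested, 5 ranked higher in BMDM, 0 lower and 8 did not pass the test, with a median difference of 0.70. The 5 that rose were Pgam1, Tpi1, Eno2, Pfkp and Pkm. Pgam1, which moves the phosphate of 3-phosphoglycerate, had H3K27ac ranks from 5339 to 8822 in the 12 HSC libraries (median 7192) and from 771 to 5085 in the 11 BMDM libraries (median 2985). All 11 BMDM libraries lay above all 12 HSC libraries, and Pgam1 was the only member of the 38 without overlap between the groups, as was the case for 2.8% of all promoters tested. Its score difference was 1.61 (SE 0.33, limma adjusted p = 0.00025), 1.39 in control and 1.82 in diabetic mice. Tpi1, triose-phosphate isomerase, had ranks from 6377 to 15065 in HSC (median 8332) and from 296 to 8939 in BMDM (median 4452). In 9 of 11 BMDM libraries it stood above every HSC library, and the difference was 1.23 (SE 0.31, limma adjusted p = 0.0025).

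Eno2, an enolase best known from neurons, was ranked in 7 of 12 HSC libraries and in 10 of 11 BMDM libraries. Its H3K27ac ranks ran from 7050 to 37746 in HSC (median 12158) and from 3870 to 15103 in BMDM (median 6781), and 7 BMDM libraries lay above all of HSC. The difference was 0.82 (SE 0.16, limma adjusted p = 0.000125), 1.19 in control and 0.44 in diabetic mice, and the test of the difference between these 2 values did not pass (limma adjusted p = 1). Pfkp, the platelet-type phosphofructokinase, had ranks from 5586 to 14344 in HSC (median 7498) and from 1238 to 7389 in BMDM (median 4619), a difference of 0.79 (SE 0.22, limma adjusted p = 0.0062). Pkm, the pyruvate kinase of most tissues, had ranks from 7502 to 12529 in HSC (median 10570) and from 3788 to 9195 in BMDM (median 6915), a difference of 0.70 (SE 0.24, limma adjusted p = 0.0214). For both genes 7 of 11 BMDM libraries ranked above every HSC library and the rest overlapped.

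Gapdh, the glyceraldehyde 3-phosphate dehydrogenase often used as a reference gene, had overlapping H3K27ac ranks, from 3147 to 7529 in HSC (median 5904) and from 1090 to 9414 in BMDM (median 5477). Its difference was 0.06 (SE 0.24, limma adjusted p = 0.883). Eno1, the enolase of most tissues, differed by 0.73 and Gpi1, glucose 6-phosphate isomerase, by 0.45, and neither passed (limma adjusted p = 0.115 and 0.113). Aldoa differed by 0.86 with an SE of 0.59. Another GENCODE record under the symbol Aldoa, which was not counted among the 45, had a lower score in BMDM, by −0.63 (SE 0.11, limma adjusted p = 1.86e-05). The 2 records at this locus thus gave values of opposite sign.

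**Figure D2:**
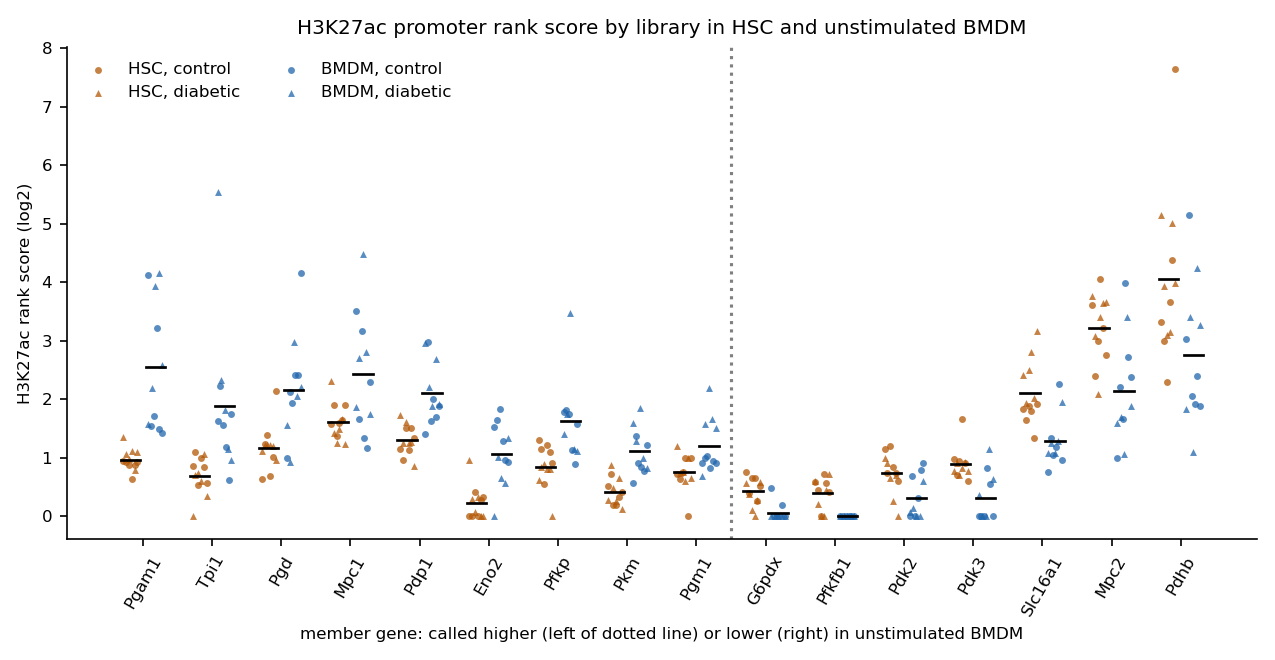
H3K27ac rank score (log2, vertical axis) of each library for the 16 members called between HSC (orange) and unstimulated BMDM (blue), with circles for control and triangles for diabetic mice and a black bar at the mean. Pgam1 is the only member whose 2 sets of points are apart, and its BMDM points spread more widely than its HSC points.

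Around lactate, 3 genes were tested for H3K27ac, and 1 ranked lower in BMDM and 0 higher. Slc16a1 (MCT1) had ranks from 1533 to 5395 in HSC (median 3606) and from 2865 to 8091 in BMDM (median 6031). In 9 of 11 BMDM libraries it lay below every HSC library, and the difference was −0.81 (SE 0.20, limma adjusted p = 0.0019). Slc16a3, the transporter MCT4 known for lactate export from glycolytic cells, had ranks from 4664 to 9404 in HSC (median 7407) and from 1451 to 10054 in BMDM (median 5850). Its difference of 0.57 (SE 0.25) had the opposite sign to that of Slc16a1 and did not pass (limma adjusted p = 0.0757). Without the 3 libraries named above it was 0.81 (SE 0.25) and passed (limma adjusted p = 0.0124), which makes 1 lactate gene lower and 1 higher. Ldha, which reduces pyruvate to lactate, had ranks from 1295 to 7721 in HSC (median 3858) and from 2135 to 7605 in BMDM (median 4328), a difference of −0.23 (SE 0.29, limma adjusted p = 0.59).

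The genes of pyruvate entry moved in both directions. Of 8 tested, 4 ranked lower in BMDM, 2 higher and 2 did not pass, with a median difference of −0.48. Pdhb had ranks from 69 to 2790 in HSC (median 994) and from 389 to 6439 in BMDM (median 2590). The difference was −1.30 (SE 0.50, limma adjusted p = 0.0406), and leaving out any of 10 single libraries lost this call, as did leaving out the 3 libraries named above (limma adjusted p = 0.0989). Mpc2 had ranks from 821 to 3227 in HSC (median 1380) and from 868 to 6886 in BMDM (median 3720), with 6 of 11 BMDM libraries below every HSC library, and a difference of −1.10 (SE 0.33, limma adjusted p = 0.0096). Its partner in the pyruvate carrier, Mpc1, went the other way, from ranks of 2764 to 5815 in HSC (median 4587) to 615 to 6122 in BMDM (median 2809). That difference was 0.84 (SE 0.29, limma adjusted p = 0.0243), and it was lost without 1 of 2 BMDM libraries, control replicate 1 or diabetic replicate 4.

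Among the enzymes that switch pyruvate dehydrogenase, the kinases Pdk2 and Pdk3 ranked lower in BMDM and the phosphatase Pdp1 ranked higher. Pdp1 had ranks from 4126 to 7576 in HSC (median 5728) and from 1748 to 5202 in BMDM (median 3637), with 8 of 11 BMDM libraries above every HSC library and a difference of 0.84 (SE 0.24, limma adjusted p = 0.0076). Pdk2 was ranked in 11 of 12 HSC and 7 of 11 BMDM libraries and differed by −0.43 (SE 0.12, limma adjusted p = 0.0051). Pdk3 was ranked in all 12 HSC and 5 of 11 BMDM libraries and differed by −0.57 (SE 0.15, limma adjusted p = 0.0027). Pdk1, the kinase known as a target of hypoxia-inducible factor, had ranks from 3438 to 13279 in HSC (median 5775) and from 3172 to 18988 in BMDM (median 6183), a difference of 0.00 (SE 0.24, limma adjusted p = 0.994). Pdha1, the α subunit paired with Pdhb, differed by −0.54 and did not pass (limma adjusted p = 0.0857).

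Among the genes of fructose 2,6-bisphosphate, the strongest activator of phosphofructokinase, 5 were tested for H3K27ac, 1 ranked lower and 0 higher. The lower gene was Pfkfb1, the liver form, which was ranked in 9 of 12 HSC libraries, 0 of 11 unstimulated and 0 of 12 LPS+IFN-γ BMDM libraries, a difference of −0.40 (SE 0.07, limma adjusted p = 4.5e-05). Its place among those tested rested on HSC, as stated above. Pfkfb3, the inducible form known from activated cells, had ranks from 4477 to 13829 in HSC (median 6217) and from 3503 to 8610 in BMDM (median 5885), a difference of 0.15 (SE 0.28, limma adjusted p = 0.707). Tigar, a phosphatase that lowers fructose 2,6-bisphosphate, was ranked in 0 HSC and 6 unstimulated BMDM libraries and differed by 0.18 (limma adjusted p = 0.0593). Without the 3 libraries named above Tigar passed at the same difference (limma adjusted p = 0.0166), but it reached the minimum of 5 libraries through BMDM alone. Pgm1, 1 of the phosphoglucomutases that link glycogen to glycolysis, ranked higher by 0.48 (SE 0.18, limma adjusted p = 0.0352), a call that 5 single libraries could each undo, while Pgm2 differed by 0.27 and did not pass.

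In the pentose phosphate pathway 7 genes were tested for H3K27ac, and 1 ranked higher, 1 lower and 5 did not pass. Pgd, the dehydrogenase that makes the later NADPH of the oxidative branch, had ranks from 3127 to 8802 in HSC (median 5956) and from 770 to 7187 in BMDM (median 3131), a difference of 0.97 (SE 0.33, limma adjusted p = 0.0196). Without the 3 libraries named above it was 0.74 and did not pass (limma adjusted p = 0.0627). Taldo1, transaldolase, was at −0.41 with all libraries and did not pass (limma adjusted p = 0.0735), and without those 3 it was at −0.50 and passed (limma adjusted p = 0.0404), which makes 0 genes higher and 2 lower. G6pdx, the enzyme before it, was ranked in 11 of 12 HSC and 2 of 11 BMDM libraries. Its ranks ran from 8108 to 13810 in HSC (median 9971) and from 9773 to 68320 in BMDM (median 30676), and the score difference was −0.37 (SE 0.10, limma adjusted p = 0.0042), where all ranks past 13730 count as a score of 0. Tkt, the transketolase of the non-oxidative branch, had ranks from 2559 to 7792 in HSC (median 5417) and from 2049 to 8405 in BMDM (median 4118), a difference of 0.19 (SE 0.23, limma adjusted p = 0.544).

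Leaving aside Pfkfb1, 2 of the 6 members that ranked lower (Pdk3 and G6pdx) lie on chromosome X. Of the 294 X-linked promoters tested for H3K27ac, 39.5% ranked lower in BMDM and 4.42% higher, against 21.6% and 11.5% of the 11706 others. The part of this chromosome-wide difference in the 2 members was not tested.

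Of 31 other genes of glucose metabolism that are not among the 45, 28 were tested for H3K27ac between HSC and BMDM, and 2 ranked higher and 6 lower. Hif1a, the hypoxia-inducible activator of many glycolytic genes, differed by 1.498 (SE 0.42, limma adjusted p = 0.0059) and Myc by 0.93 (SE 0.32, limma adjusted p = 0.0238). The 6 lower genes were Pdpr, a regulator of the pyruvate dehydrogenase phosphatase (−1.53), Slc2a3, a glucose transporter (−1.02), Pck2 (−0.57), Prps2, a ribose phosphate kinase (−0.37), Bpgm (−0.33) and Pcx, pyruvate carboxylase (−0.33). The median difference over the 28 was −0.01.

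For H3K4me3, 38 members were tested between HSC and BMDM, and 3 ranked higher in BMDM and 0 lower (limma, adjusted over 13351 promoters). Of all promoters tested 10.7% differed, 3.52% higher and 7.16% lower. The median difference was 0.35 over the members and 0.03 over all promoters tested, and 13 of 38 had an unadjusted p under 0.05 (34.2%, against 28.3%). The HSC lists of this mark were the shorter ones, and without the 5 HSC lists under 50000 peaks, a choice made after the list lengths were seen, 0 members were called (6.32% of all promoters tested). The count was 0 with peaks ranked by fold enrichment (1.18% of all promoters tested), 0 of 12 testable members by Fisher's exact test on ranked or not ranked (3.57% of 5149 testable promoters), and 10 with promoter percentiles in place of peak ranks (16.4%).

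The 3 higher members were Tpi1, Pfkfb2 and Pfkfb3. Tpi1 had H3K4me3 ranks from 9002 (median 11140) to no peak in HSC and from 54 to 10762 in BMDM (median 3833), with 10 of 11 BMDM libraries above every HSC library, and differed by 2.14 (SE 0.56, limma adjusted p = 0.0144). With all libraries it was the only member called higher for both marks. Pfkfb2, a heart-type enzyme of fructose 2,6-bisphosphate, had ranks from 1228 to 15554 in HSC (median 8046) and from 66 to 6491 in BMDM (median 2189), a difference of 2.33 (SE 0.67, limma adjusted p = 0.0243). Pfkfb3 had ranks from 5536 to 22054 in HSC (median 8561) and from 660 to 10741 in BMDM (median 5266), a difference of 1.40 (SE 0.42, limma adjusted p = 0.0283). The Pfkfb2 and Pfkfb3 ranks overlapped between the cell states, and 4 and 7 of 11 BMDM libraries lay above all of HSC. Leaving out diabetic BMDM library 4 lost the Pfkfb2 call (limma adjusted p = 0.0592). The Pfkfb3 call was lost without diabetic library 1 or without control library 2. It was also lost without the control libraries that share numbers with those doubted for H3K27ac (limma adjusted p = 0.0621).

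Several members with large H3K4me3 differences did not pass. Gapdh had ranks from 880 to 25715 in HSC (median 10039) and from 643 to 13511 in BMDM (median 1960), a difference of 2.01 (SE 0.69, limma adjusted p = 0.0518). Ldha had ranks from 2853 to 19104 in HSC (median 10277) and from 122 to 11158 in BMDM (median 4524), a difference of 1.38 (SE 0.57, limma adjusted p = 0.107). Pfkp had ranks from 4401 (median 11600) to no peak in HSC and from 1185 to 8434 in BMDM (median 4888), a difference of 1.45 (SE 0.64, limma adjusted p = 0.131). Without the H3K4me3 control BMDM libraries that share numbers with those doubted for H3K27ac, Pfkp passed at 1.44 (SE 0.44, limma adjusted p = 0.0450, with 6.25% of all promoters tested called). Pfkp was then called higher for both marks, as Tpi1 was. Its difference hardly moved, and its SE fell. The libraries left out include control LPS+IFN-γ library 5, where Pfkp had a score of 9.84. That library is outside this comparison but enters the shared estimate of spread, and its part in the call was not tested. On the promoters called for stimulation the H3K4me3 libraries left out did not stand apart, as stated above. The ranks of all 3 genes overlapped between HSC and BMDM.

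Pkm differed by 0.55 for H3K4me3 (limma adjusted p = 0.302), with ranks from 2335 to 25189 in HSC (median 14151) and from 1907 to 15629 in BMDM (median 7181). Pdk1 had the opposite sign, −1.52 (SE 0.69, limma adjusted p = 0.136), with ranks from 54 to 7167 in HSC (median 2434) and from 176 to 15769 in BMDM (median 5845). Slc16a1 was at −1.73 (SE 0.76, limma adjusted p = 0.125). Pgam1, the clearest H3K27ac difference, had nearly equal H3K4me3 ranks, with a median of 5129 in HSC and 4911 in BMDM, and a difference of 0.01 (SE 0.48, limma adjusted p = 0.988). Slc16a3 differed by −0.04 and Tkt by −0.81, and neither passed (limma adjusted p = 0.946 and 0.347). Of the other genes of glucose metabolism, 25 were tested for H3K4me3, and 1, Dld, the dihydrolipoamide dehydrogenase shared by mitochondrial enzyme complexes, ranked lower in BMDM by −2.14 (SE 0.67, limma adjusted p = 0.0351).

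**Figure D3:**
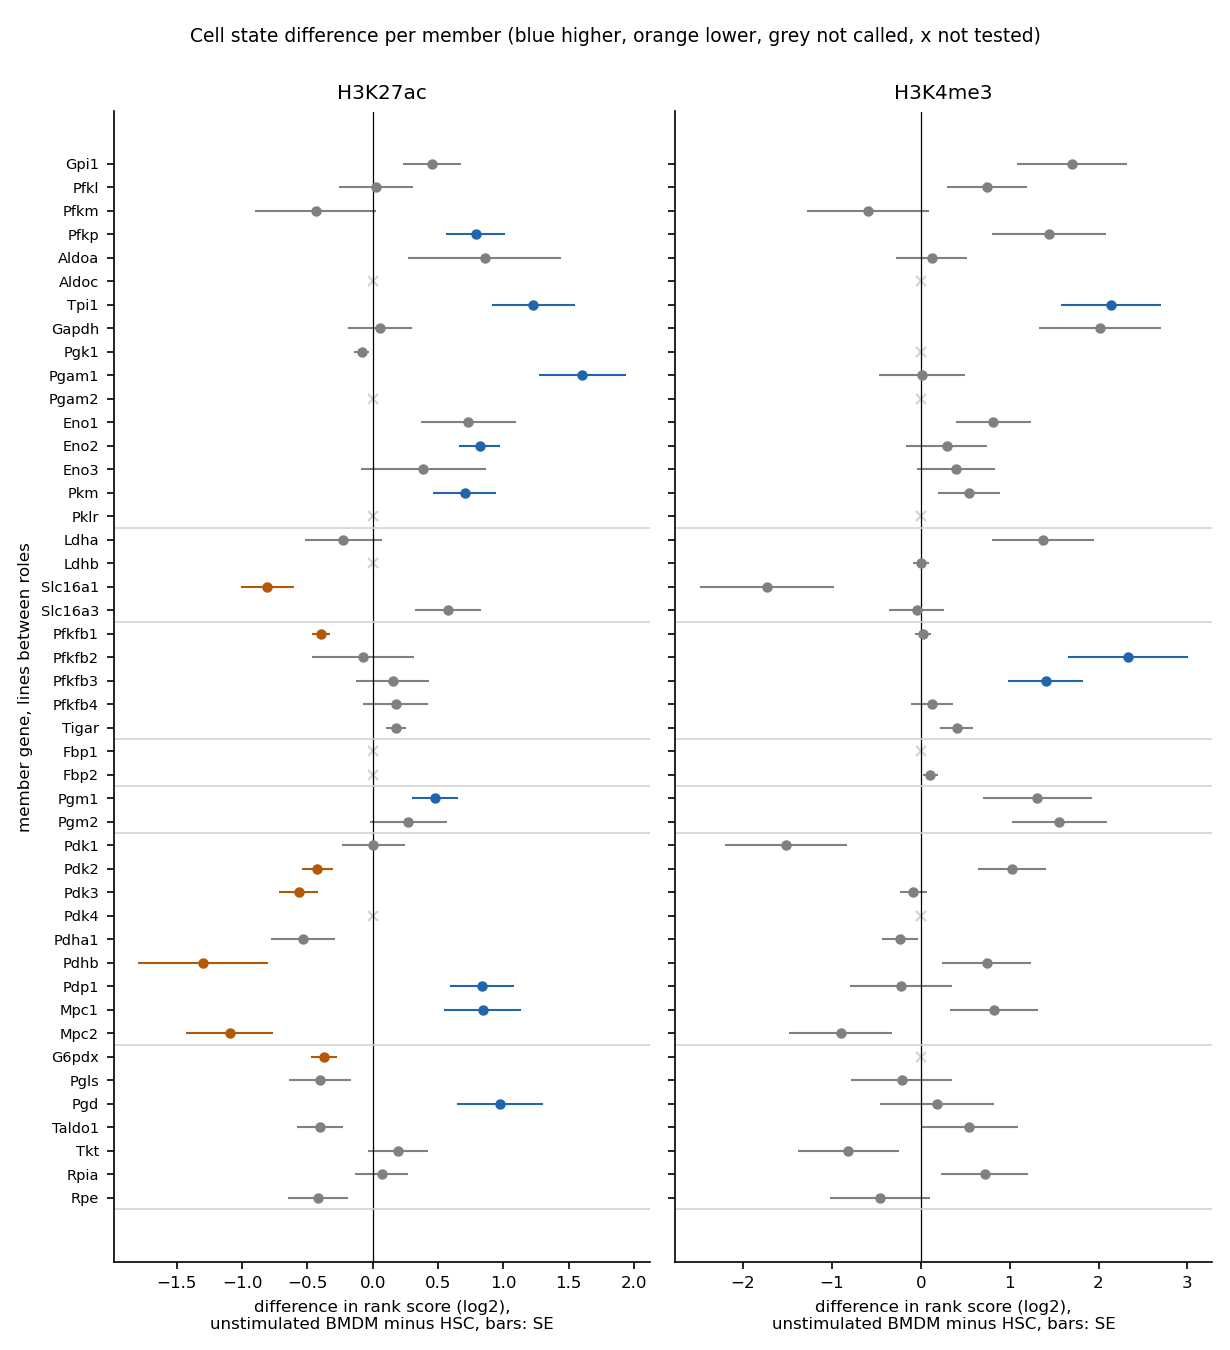
Difference in rank score (log2, horizontal axis, unstimulated BMDM minus HSC) with its SE for each member, by role, for H3K27ac on the left and H3K4me3 on the right. Blue points passed the test as higher in BMDM (9 for H3K27ac, 3 for H3K4me3), orange points as lower (7 and 0), grey points did not pass and crosses were not tested.

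The comparison of LPS+IFN-γ with unstimulated BMDM asked whether an inflammatory stimulus moved the members. It used the same unstimulated libraries as the comparison with HSC, so the results of the 2 comparisons are not independent. For H3K27ac 0 of 38 members passed the test (limma, adjusted p under 0.05), against 2.42% of all promoters tested, 0.817% higher and 1.6% lower. By unadjusted p under 0.05 there were 6 (15.8%, against 16.7% of all promoters tested). Fisher's exact test called 0 of 6 testable members (0.0362% of testable promoters). The median difference was −0.05 over the members and −0.02 over all promoters tested. Socs1, an inhibitor of cytokine signaling induced by interferon-γ, differed by 2.20 in the same fit (SE 0.54, limma adjusted p = 0.0225). Of 8 markers of LPS+IFN-γ macrophages, only 4 were ranked often enough to test here, and 1 passed, as higher. The median difference over these 4 was 0.32.

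The 6 members were Aldoa (1.22), Eno1 (0.92), Pfkfb3 (0.62), Tkt (−0.54), Pgm2 (−0.65) and Tpi1 (−0.92), and the lowest adjusted p among the 38 was 0.104, for Tpi1. Eno1 had H3K27ac ranks from 561 to 4171 in unstimulated control BMDM (median 3139) and from 1073 to 4490 after LPS+IFN-γ (median 1902). In diabetic mice its ranks were 4434, 3402, 1879, 2089 and 2436 in unstimulated BMDM and 255 to 2766 (median 935) after LPS+IFN-γ. The groups overlapped in both. Without the 3 control libraries that went against their labels, Eno1 passed the test, with a difference of 1.35 (SE 0.35, limma adjusted p = 0.0119). It was the only member to do so (6.94% of all promoters tested, against 2.42% with all libraries). These 3 were picked because they went against the direction of stimulation at promoters called in diabetic BMDM. Leaving them out therefore favors calls in this comparison, and the Eno1 call is no independent support for a response. Control unstimulated library 5, which is among them, held the Eno1 rank of 561. Leaving out control unstimulated library 5 alone also gave 1 member called.

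Pfkfb3 had H3K27ac ranks from 3503 to 8610 in unstimulated BMDM (median 5885) and from 547 to 7649 after LPS+IFN-γ (median 4064), with overlap. Ldha had ranks from 2135 to 7605 (median 4328) and from 1261 to 6330 (median 4380), and Gapdh from 1090 to 9414 (median 5477) and from 3843 to 9566 (median 7152). Neither gene had a rank range that stood apart after stimulation. Pkm ranks ran from 3788 to 9195 (median 6915) in unstimulated BMDM and from 1370 to 14300 (median 7294) after LPS+IFN-γ, and Pfkp ranks from 1238 to 7389 (median 4619) and from 2677 to 7770 (median 6165). Slc16a3 had ranks from 1451 to 10054 (median 5850) and from 4383 to 12861 (median 6487), and Pdk1 from 3172 to 18988 (median 6183) and from 2565 to 8697 (median 5222). These 4 overlapped between the groups as well. Tkt had ranks from 2049 to 8405 (median 4118) and from 2449 to 9466 (median 6990), and G6pdx was ranked in 2 of 11 unstimulated and 4 of 12 stimulated libraries.

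For H3K4me3, stimulation gave 0 members called by limma and 0 of 7 testable members by Fisher's exact test, against 0% of all promoters tested. By unadjusted p under 0.05 there were 4 members (10.5%, against 6.01% of all promoters tested): Aldoa at 0.94, Pdhb at −1.10, Pgm2 at −1.14 and Tpi1 at −1.27. The signs of Aldoa, Pgm2 and Tpi1 were the same for H3K27ac. Ldha had H3K4me3 ranks from 294 to 7895 after LPS+IFN-γ (median 3392) beside 122 to 11158 before (median 4524), and Pfkfb3 from 968 to 14463 (median 6714) beside 660 to 10741 (median 5266). Both genes overlapped between the groups over nearly their whole range.

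The comparisons of diabetic with control mice asked whether the ranks of these promoters differed in HSC, and in BMDM after 7 days at the same glucose. A change in a mark that all promoters share would not appear in ranks. For either mark and each of the 3 cell states, 0 of 38 members passed the test (limma, adjusted p under 0.05). Of all promoters tested 0% passed. For H3K27ac the number with an unadjusted p under 0.05 was 1 among HSC (2.63%, against 2.22% of all promoters tested), 2 in unstimulated BMDM (5.26%, against 5.29%) and 1 in LPS+IFN-γ BMDM (2.63%, against 4.3%). For H3K4me3 it was 1 (2.63%, against 3.87%), 2 (5.26%, against 4.01%) and 2 (5.26%, against 6.25%). Fisher's exact test called 0 members too, but few could reach significance in it. For H3K27ac 1 member was testable among HSC, 4 before stimulation and 0 after it. For H3K4me3 the testable members numbered 5, 4 and 1. The H3K27ac count after stimulation was thus 0 before any test and says nothing about the members. The median SE of a member's difference was 0.34, 0.35 and 0.34 for H3K27ac and 0.68, 0.72 and 0.68 for H3K4me3. Differences well above the median SE did not pass either, such as H3K4me3 Pfkm at 2.13 in HSC and Gpi1 at 2.02 in unstimulated BMDM. The absence of calls therefore does not exclude differences of such size.

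In HSC the H3K27ac differences (diabetic minus control) ran from −0.37 (Pfkp) to 0.73 (Slc16a1). Slc16a1 had ranks from 3609 to 5395 in control HSC (median 3892) and from 1533 to 3603 in diabetic HSC (median 2500). The 2 groups of 6 did not overlap, by the narrow margin of ranks 3603 and 3609, as was the case for 0.0833% of all promoters tested, and with an SE of 0.28 the limma adjusted p was 1. In unstimulated BMDM the same gene overlapped, with ranks from 2865 to 8091 in control mice (median 6348) and 6449, 5779, 6456, 5618 and 3540 in diabetic mice. Slc16a1 was chosen here after its values were seen.

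In unstimulated BMDM the H3K27ac differences ran from −1.07 (Aldoa) to 0.86 (Tpi1). The pair with an unadjusted p under 0.05 were Eno2 (−0.65, SE 0.23, limma adjusted p = 0.76) and Pgm1 (0.59, SE 0.26, limma adjusted p = 0.908). In LPS+IFN-γ BMDM they ran from −0.57 (Pgam1) to 1.13 (Eno1, SE 0.50, limma adjusted p = 1).

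Ldha, the lactate-forming enzyme, showed the overlap that was typical. Its H3K27ac ranks ran from 2506 to 7721 in control HSC (median 4441) and from 1295 to 4962 in diabetic HSC (median 3268). In unstimulated BMDM they ran from 2135 to 7605 in control mice (median 4119) and were 3390, 5594, 3332, 4466 and 4741 in diabetic mice. Pfkfb3 was much the same: its ranks ran from 4477 to 7724 in control HSC (median 6558) and from 4623 to 13829 in diabetic HSC (median 6190). In unstimulated BMDM they ran from 4124 to 8085 in control mice (median 6204) and were 7105, 5518, 8610, 3503 and 4626 in diabetic mice. After LPS+IFN-γ they ran from 3194 to 7649 in control (median 4471) and from 547 to 6127 in diabetic mice (median 3636), with the best rank, 547, in diabetic library 1.

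For H3K4me3 the disease differences were wider and their errors larger. They ran from −1.01 (Rpe) to 2.13 (Pfkm) in HSC, from −1.64 (Taldo1) to 2.02 (Gpi1) in unstimulated BMDM and from −1.79 (Slc16a1) to 1.40 (Eno3) in LPS+IFN-γ BMDM. Rpe and Taldo1 belong to the non-oxidative pentose phosphate branch, and Eno3 is the muscle enolase. None of these 6 passed (limma adjusted p from 0.724 to 1).

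**Figure D4:**
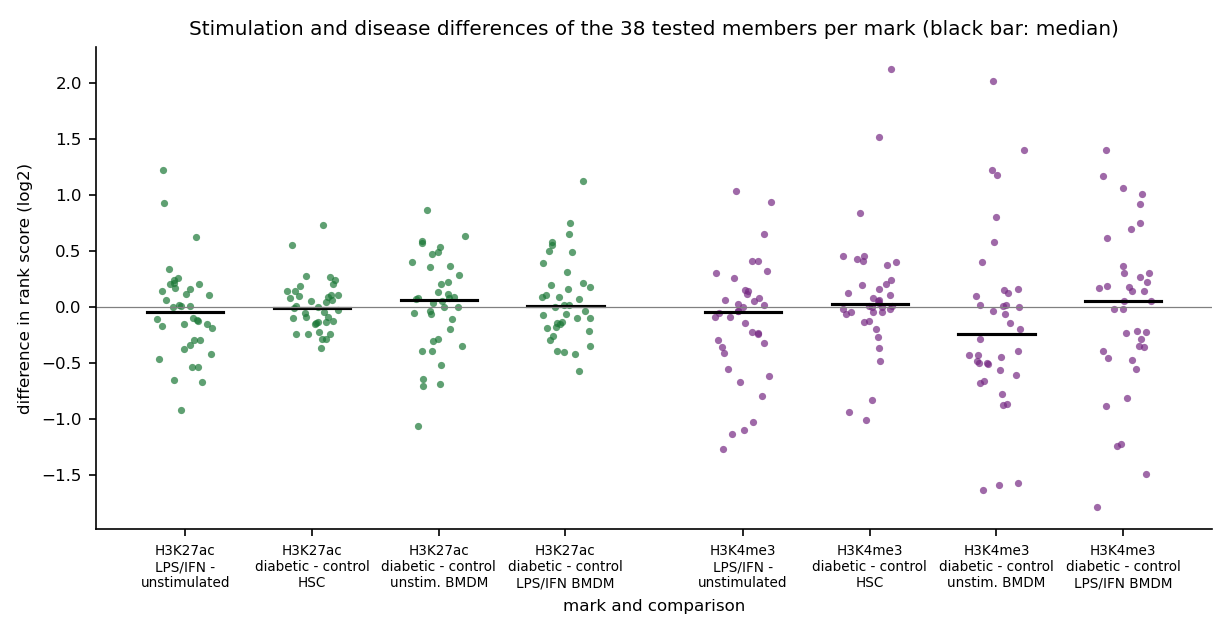
Difference in rank score (log2, vertical axis) of each of the 38 tested members per mark for stimulation (LPS+IFN-γ minus unstimulated BMDM) and for disease (diabetic minus control) in the 3 cell states, with a black bar at the median. No point passed the test, and the H3K4me3 points spread more widely than the H3K27ac points.

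Whether the effects of cell state or stimulation differed between diabetic and control mice was tested as a difference of differences. For both marks and both effects, 0 of 38 members passed (limma, adjusted p under 0.05), against 0% of all promoters tested. By unadjusted p under 0.05 there were 2 for H3K27ac stimulation (5.26%, against 6.16% of all promoters tested), Eno2 (0.86) and Pfkfb4 (1.09). For H3K27ac cell state there was 1 (2.63%, against 2.93%), Eno2 (−0.75). For H3K4me3 there was 1 each, Tigar (0.81) for stimulation (2.63%, against 5.3%) and Pfkm (−2.79) for cell state (2.63%, against 3.63%). No share of members was above that of all promoters tested. These differences of differences had a median SE of 0.49 for H3K27ac and 0.99 for H3K4me3.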

How the data were processed

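The study deposited 106 samples: 70 ChIP-seq libraries (35 for each mark, in 12 groups) and 36 inputs, with 1 MACS2 narrow peak list for each ChIP library. Reads were 50-base single reads. Per the labels, the submitters' processing notes name Bowtie2 2.2.6, FastQC 0.11.3, MACS2 2.2.7.1, Picard 2.18.14 and 2.19.2, Trim Galore 0.3.3, bedtools 2.19.1 and cutadapt 1.8, and the builds GRCm38 and mm10, with no role or order. The deposited lists give for each peak a score (column 5), a fold enrichment, which is a ratio at the summit (column 7), a −log10 p (column 8) and a −log10 q (column 9). Peaks were called by the authors per library, so peak sets differ in length between libraries, and read totals are not in the lists: depth is unknown and no counting interval is given.

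From these lists, each protein-coding gene of GENCODE M21 (21938 genes, 93513 start sites) received the best rank, by −log10 p, of any peak overlapping 1000 bp on either side of a start site. Scores were log2 of 13730 over the rank, and 0 past it. Promoters ranked in at least 5 of 35 libraries were fitted with limma 3.58.1 in R 4.3.3 over the 6 groups of a mark, with empirical Bayes moderation and Benjamini-Hochberg adjustment over all promoters tested (threshold 0.05, 2-sided), after a test on simulated data. Python 3.11.15, numpy 2.4.6, pandas 2.3.3 and matplotlib 3.10.9 did the rest. Diabetic unstimulated BMDM replicate 3 was not analysed here.

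The members, gene lists and the 3 doubted libraries were chosen with earlier results of these data known. Values by library were set down for Gapdh, Ldha, Pkm, Pfkp, Pfkfb3, Pdk1, Pdk4, Slc16a3, G6pdx and Tkt, and for up to 4 called members with the largest difference in each comparison, and other pathway genes were to be named when called. Other members were named after their values were seen. One cell type marker is not reported here. Alternatives were gene percentiles as normal scores, ranking by fold, a rank limit of 5000, no filter, a window of 500 bp, the summit within the window, −log10 q of at least 3, the groups of a contrast alone, a replicate block, control or diabetic mice alone, Fisher's exact test on ranked or not, leaving out each library, and leaving out the 3 libraries.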

Additional observations from a re-analysis of the deposited data

Results flagged for a closer look

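Single libraries that stood far from the others of their group were sought by Dixon's ratio in groups of 5 or 6, which chance alone flags in about 1 in 20 groups. Of 36 groups of summary values 4 held such a library, and of 164 groups of member scores 19 did. None was left out of the tests, and no cause was tested.

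Among summary values, the number of members with any peak was 39 in H3K27ac diabetic LPS+IFN-γ BMDM replicate 5 (highest of the group 42) and 42 in H3K4me3 control LPS+IFN-γ BMDM replicate 3 (highest 45). The median member score was 0.68 in H3K27ac diabetic HSC replicate 6 (highest 1.08), and 35 members were ranked in H3K4me3 diabetic unstimulated BMDM replicate 4 (lowest 31).

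Among H3K27ac member scores, Pfkp stood at 3.47 in diabetic unstimulated BMDM replicate 4 and at 0 in diabetic HSC replicate 6. Pfkfb3 stood at 4.65 in diabetic LPS+IFN-γ BMDM replicate 1, and Pdk4 at 0.0094 in diabetic HSC replicate 5, where the other 5 libraries were at 0. Pgam1 stood at 0.64 in control HSC replicate 4, below the other control HSC libraries. Pdhb stood at 5.14 and Pfkfb2 at 3.85 in control unstimulated BMDM replicates 2 and 1, and Mpc2 at 4.01 in control LPS+IFN-γ BMDM replicate 2.

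Among H3K4me3 member scores, Gapdh stood at 7.22 in diabetic LPS+IFN-γ BMDM replicate 1 and at 3.96 in diabetic HSC replicate 5, and Pkm at 2.56 in diabetic HSC replicate 6. Ldha stood at 6.81 in control unstimulated BMDM replicate 2 and at 2.27 in control HSC replicate 1. Pfkfb2 stood at 7.70 and Slc16a3 at 2.61 in control unstimulated BMDM replicate 1. Slc16a3 stood at 2.47 and Pdk4 at 0.65 in control HSC replicate 5. Pfkp stood at 9.84 and Tkt at 4.93 in control LPS+IFN-γ BMDM replicate 5.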

How the results depend on the processing

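Among the members called in the comparison of HSC with unstimulated BMDM, no difference changed direction under the alternatives run (0 of 246 values), and 67 of these 246 no longer passed the test. Differences that had not passed did change sign: without the 3 control libraries 4 did so for H3K27ac between these cell states (Pfkl, Eno3, Pdk1 and Rpia) and 1 for H3K4me3 (Pgam1). Counts of members called were within 1.5 times the reported count in 394 cases and moved in 19. The 394 include comparisons with a reported count of 0 that stayed at 0, so they do not show that the calls were stable. For H3K27ac between HSC and unstimulated BMDM, 16 became 4 with peaks ranked by fold, 5 with a rank limit of 5000, 5 within control mice, 7 within diabetic mice and 4 by Fisher's exact test, for which 9 members could reach significance, and 14 to 17 when 1 library was left out. For H3K4me3 between HSC and unstimulated BMDM, 3 became 10 with gene percentiles, 0 with fold, 0 with the limit of 5000, 5 with the groups of the contrast alone, 0 without the HSC lists under 50000 peaks (chosen after the lengths were seen), 1 within control mice, 0 within diabetic mice, 0 by Fisher's exact test, and 2 to 5 when 1 library was left out. It was 2 without diabetic unstimulated BMDM replicate 1 or 4 and 5 without replicate 2 or 6 of that group or diabetic HSC replicate 5. For H3K27ac stimulation, 0 became 1 without the 3 control libraries, and was 0 to 1 when 1 library was left out, with 1 without control unstimulated BMDM replicate 5. The 3 were picked on promoters called for stimulation, so the first of these counts is not independent of that choice. All other comparisons stayed at 0. Beyond the settings whose own construction tests fewer samples or promoters, the cause was not tested.

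The replicate numbers recur in every group, but the correlation of deviations between libraries of the same number was not above 0.1 in every pair of any set (−0.240 to 0.352 for H3K27ac, −0.279 to 0.254 for H3K4me3), so they are treated as a number alone. Between cell states, at most 3 libraries in a set of 5 or 6 correlated best with their own number. Between unstimulated and LPS+IFN-γ BMDM, however, the median correlation was higher for the same number than for other numbers in every set. For H3K27ac it was 0.07 beside −0.002 in control and 0.12 beside −0.03 in diabetic mice. For H3K4me3 it was 0.02 beside −0.006 and 0.09 beside −0.04. The main tests did not use the number, and whether it marks the same animal was not tested. With the replicate block, 15 members were called for H3K27ac between HSC and unstimulated BMDM and 5 for H3K4me3, and 0 in all other comparisons. Pgm1 was 0.43 with the block and did not pass (limma adjusted p = 0.0861).

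The lists hold no read totals, so how depth limits these ranks could not be measured. A rank is relative to the other peaks of its library, scores of 0 hide differences beyond rank 13730, and 7 members per mark were ranked in too few libraries to test.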
